A study of Mus musculus with 4 samples.

Results

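The ERBB receptors and the growth factors of the EGF family were followed in mouse mammary cells sorted by expression of Lgr6. The members were 4 receptor genes, Egfr, Erbb2, Erbb3 and Erbb4, and 6 ligand genes, Areg, Ereg, Hbegf, Tgfa, Btc and Nrg1, matched by symbol among the 24442 genes of the deposited count table. All 10 were in the table, and 9 reached the minimum level for testing. Ereg did not.

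RNA was sequenced from mammary cells of female Lgr6-eGFP-CreErt2 mice aged 5 weeks. Both groups carry this allele, which has a green fluorescent protein and a tamoxifen-inducible recombinase at the Lgr6 locus. Lgr6-positive cells, with 2 libraries, were set against Lgr6-negative cells, also with 2 libraries. The protocol, alike for all libraries, names a sort by flow cytometry of LIN- cells for Lgr6 after enzymatic digestion of the glands, and lists no treatment. The reporter marks cells in which the Lgr6 locus is active. No source used here gives the lineage markers, the gate of the Lgr6-negative population or the number of mice behind a library, so p-values measure the spread between these libraries, which may be technical.

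ERBB receptors are tyrosine kinases that pair when an EGF family ligand binds, and they signal through RAS, ERK and PI3-kinase. ERBB2 binds no known ligand and acts as the preferred partner of the other receptors, while ERBB3 has a weak kinase and signals mainly through its partners. In the mouse mammary gland at puberty, amphiregulin (Areg) is released from hormone-receptor-positive luminal cells after oestrogen stimulation, and Egfr in the stroma is needed for the ducts to grow. Ligands are made as membrane-bound precursors and are cut free by ADAM proteases, chiefly ADAM17.

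Total counts lay between 6819127 and 7167465 per library, and 11959 to 14144 genes were detected. The ribosomal RNA precursor Rn45s took 17.2% and 14.5% of counts in Lgr6-positive libraries, against 18.7% and 30.8% in Lgr6-negative libraries, and replicate 2 of the Lgr6-negative cells stands apart in this. With Rn45s left out of the counts, Erbb2 kept its call (adjusted p = 0.0449) and no other member passed. Lgr6 had 172 and 655 counts in Lgr6-positive libraries, against 3 and 10 in Lgr6-negative libraries (log2 fold change 5.52, SE 1.47, adjusted p = 0.0510). The direction matched the sort labels, although the test was missed. In edgeR's quasi-likelihood test, 8 of 8 pan-epithelial markers were higher in Lgr6-positive cells. Their summed level was 3598 and 3484 CPM (count relative to library size, with the trimmed-mean-of-M-values or TMM correction) in Lgr6-positive libraries and 142 and 110 CPM in Lgr6-negative libraries. Of 12 leukocyte markers, 8 were lower and 4 did not pass, and their sum was 1770 and 2113 CPM against 28566 and 30845 CPM. In bulk samples such as these, fewer cells of a type and less RNA per cell cannot be told apart.

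Of the 9 tested members, 1 was higher in Lgr6-positive cells, none was lower and 8 did not pass a Benjamini-Hochberg adjusted p of 0.05 in edgeR's quasi-likelihood test. The gene that rose was Erbb2. Among all 11661 genes tested, 4.49% were higher and 4.57% lower. Higher genes made up 49.6% of all calls, and 65.8% when scaled by library size alone. At an unadjusted p under 0.05, 7 of the 9 were higher and 1 was lower, where 25.1% of all tested genes passed in either direction. DESeq2 called 6 higher and 1 lower, where 1412 and 1003 of all 11661 genes were called in these directions. Limma-voom called 4 higher and 1 lower, where 754 and 728 of all genes were called. All Lgr6-positive libraries lay above all Lgr6-negative libraries for 8 tested members and below them for 1, Nrg1, where 30.0% and 25.9% of all tested genes were apart in these directions. Of the 9, 7 reached the minimum level for testing (1.44 CPM by library size) in the 2 Lgr6-positive but not in both Lgr6-negative libraries, and Nrg1 reached it in the Lgr6-negative libraries alone. Such genes have, by definition, at least 1 library of the other population below the minimum, so these counts describe the members and support nothing further.

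**Figure D1:**
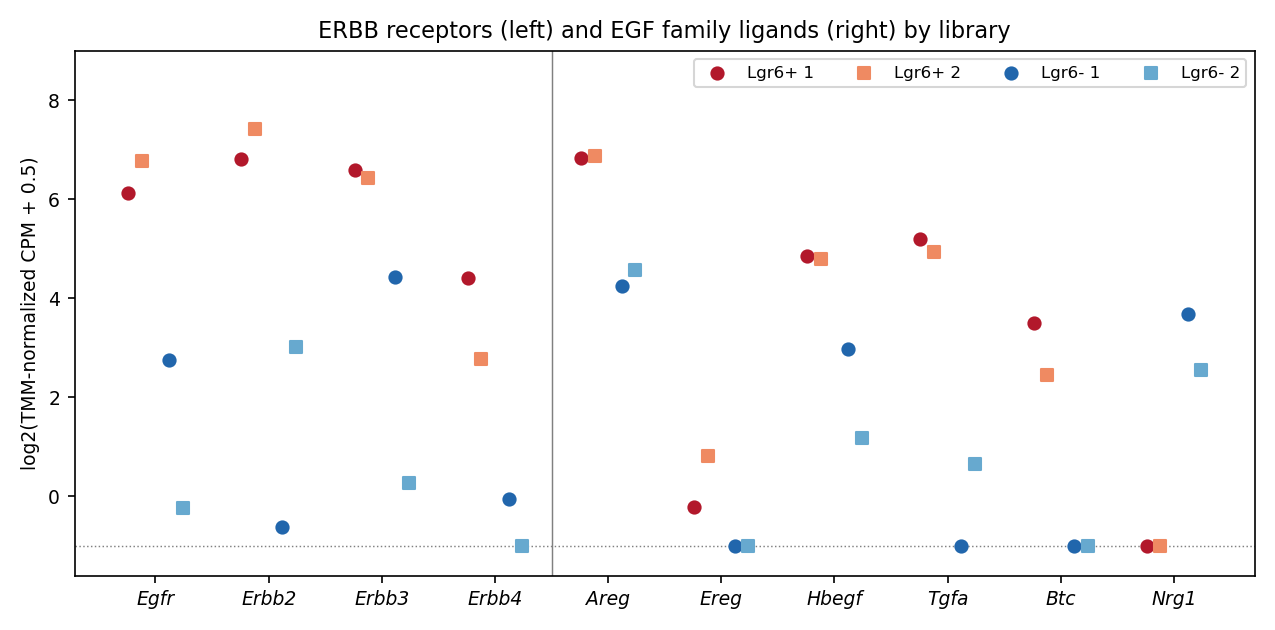
Level of each member in each library as log2(TMM-normalized CPM + 0.5), with the receptors left and the ligands right of the vertical line and a dotted line at 0 CPM. Red points are Lgr6-positive and blue points Lgr6-negative libraries. The red points lie above the blue points except for Nrg1, which had no counts in Lgr6-positive libraries, and the blue points of Egfr, Erbb2 and Erbb3 are far apart.

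Of the tested members, 8 were highest in the Lgr6-positive libraries and Nrg1 was not. The promoters of Erbb2 and of 2 of the ligands among these 8 are shown. RefSeq promoters (GRCm38.p6, 250 bases before to 50 after the start) were matched for 6 of the 10 members, Egfr, Erbb2, Erbb4, Areg, Tgfa and Btc. Capitals mark matches to a GC box (GGGCGG), a cyclic-AMP response element (TGACGTCA), an AP-1 site (TGANTCA), the palindromic oestrogen response element or a TATA box (TATAAA), searched on both strands. The Erbb2 promoter lies at chr11:98412234-98412533 on the plus strand, the Areg promoter at chr5:91139349-91139648 on the plus strand and the Tgfa promoter at chr6:86194972-86195271 on the plus strand.
Erbb2 promoter: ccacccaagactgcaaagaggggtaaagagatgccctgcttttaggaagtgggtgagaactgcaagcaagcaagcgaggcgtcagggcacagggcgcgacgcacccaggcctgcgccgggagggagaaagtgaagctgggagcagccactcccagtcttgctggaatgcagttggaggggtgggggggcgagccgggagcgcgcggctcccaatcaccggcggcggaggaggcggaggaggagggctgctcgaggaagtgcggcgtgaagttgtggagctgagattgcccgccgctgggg
Areg promoter: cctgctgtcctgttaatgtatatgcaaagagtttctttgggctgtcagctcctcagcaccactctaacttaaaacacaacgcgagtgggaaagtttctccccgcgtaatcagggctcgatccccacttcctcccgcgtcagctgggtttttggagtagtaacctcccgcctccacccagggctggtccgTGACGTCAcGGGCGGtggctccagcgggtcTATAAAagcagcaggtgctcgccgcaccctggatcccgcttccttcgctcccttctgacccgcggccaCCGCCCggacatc
Tgfa promoter: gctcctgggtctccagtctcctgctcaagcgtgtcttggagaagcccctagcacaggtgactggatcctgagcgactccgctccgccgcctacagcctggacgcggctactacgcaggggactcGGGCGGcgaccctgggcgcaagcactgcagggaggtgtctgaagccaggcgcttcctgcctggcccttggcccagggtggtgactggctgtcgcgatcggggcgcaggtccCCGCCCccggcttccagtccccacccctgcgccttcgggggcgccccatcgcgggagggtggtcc

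The Areg window held a cyclic-AMP response element that starts at base -61 from the transcription start, a GC box at -52 and a TATA box at -31, none overlapping another. Of 32851 promoters in the RefSeq table, 1.79% held a cyclic-AMP response element, 13.6% a TATA box and 35.7% a GC box. A second GC box of Areg, on the minus strand, began at base 38 after the start. Tgfa had GC boxes at -126 and, on the minus strand, at -15, and Egfr had 1 on the minus strand at -9. The windows of Erbb2, Erbb4 and Btc held none of these letters. AP-1 letters occurred in 7.81% and the oestrogen response element in 0.0700% of all promoters, and neither occurred in the 6 windows.

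Erbb2 encodes the ligandless partner receptor and lies on chromosome 11 of GRCm38 from 98412470 to 98437716, plus strand. It had 909 and 1341 counts in Lgr6-positive libraries, against 1 and 43 in Lgr6-negative libraries. The Lgr6-positive libraries were both high, and the Lgr6-negative libraries were low but unlike each other. The level was 141 ± 41.3 CPM against 3.90 ± 5.29 CPM (mean ± SD over 2 libraries of each kind), a log2 fold change of 5.18 (SE 1.37, adjusted p = 0.0496). The call held under 12 of 12 other settings, with adjusted p from 1.93e-06 to 0.0449. In settings that leave out a library, here and below, 1 population has a single library, which is assumed to vary like the other population. Passing in such settings adds no support. The fold depended on the Lgr6-negative library. Against replicate 1 alone, with 1 count, the ratio was 899 with a 95% counting interval from 161 to 35511, and against replicate 2 alone it was 18.3, from 13.6 to 25.4. The fitted log2 fold change was 4.19 with replicate 1 left out and 9.66 with replicate 2 left out. These intervals hold counting error alone and no spread between libraries. They can be too narrow even for that, because reads copied by PCR and not tagged per molecule are not independent.

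Egfr, the receptor of EGF, amphiregulin and TGF-alpha, lies on chromosome 11 from 16752203 to 16918158. It had 566 and 862 counts in Lgr6-positive libraries, against 40 and 2 in Lgr6-negative libraries. The groups did not overlap, and the Lgr6-negative libraries again differed from each other. At 89.3 ± 28.2 CPM against 3.30 ± 4.16 CPM, the log2 fold change was 4.74 (SE 1.34, adjusted p = 0.0617). Egfr missed the threshold but passed under 9 of 12 other settings, some of which left out a library. With all 4 libraries kept, adjusted p in the other settings lay between 0.000415 (DESeq2) and 0.0596 (library size alone). The log2 fold change was 7.89 without replicate 1 and 3.82 without replicate 2 of the Lgr6-negative cells. It was 5.03 without replicate 1 and 4.35 without replicate 2 of the Lgr6-positive cells.

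Erbb3, the kinase-weak neuregulin receptor, lies on chromosome 10 from 128567523 to 128589652. Its counts were 780 and 678 in Lgr6-positive libraries, against 136 and 4 in Lgr6-negative libraries. Replicate 1 of the Lgr6-negative population held nearly all counts of that group. The log2 fold change of 3.04 (SE 1.32, adjusted p = 0.191) became 6.95 without that library and 2.08 without the other Lgr6-negative library.

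Erbb4, the other neuregulin receptor, which takes part in alveolar development and milk production, spans bases 68032186 to 69108059 of chromosome 1. It had 170 and 50 counts in Lgr6-positive libraries, against 3 and 0 in Lgr6-negative libraries. The ratio of summed levels was 55.0 with a 95% counting interval from 18.6 to 269, and the test gave an adjusted p of 0.164. Its level was 20.85 and 6.34 CPM in Lgr6-positive libraries, against 0.468 and 0 CPM in Lgr6-negative libraries. It passed in DESeq2 (0.0317) and under a stricter filter (0.0451), and over 12 other settings adjusted p reached 0.483.

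**Figure D2:**
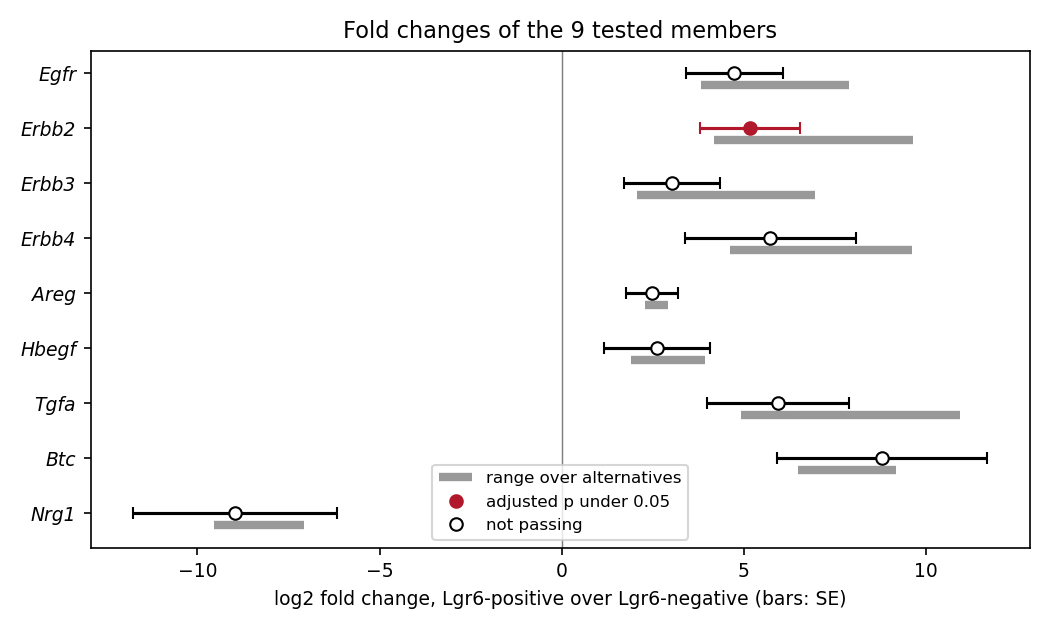
Log2 fold change of the 9 tested members, Lgr6-positive over Lgr6-negative, with SE as error bars and the range over the other settings as grey bars. Erbb2 is the filled red point at 5.18. Nrg1 is the member left of 0, and the fitted values of Btc and Nrg1 rest on groups without counts, so their size depends on the fit.

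Areg, the amphiregulin gene, lies on chromosome 5 from 91139599 to 91148432, and the promoter with the cyclic-AMP response element letters is its own. It had 927 and 923 counts in Lgr6-positive libraries, against 118 and 131 in Lgr6-negative libraries. Its libraries were close to each other in both populations, at 115 ± 2.32 CPM against 20.85 ± 3.45 CPM. It was also the 1 member over the minimum level for testing in all 4 libraries. Its log2 fold change of 2.47 (SE 0.71) had an adjusted p of 0.0643. Over the 12 other settings the fold change lay between 2.29 and 2.93, and 4 of them passed, with adjusted p from 0.00259 to 0.184.

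Tgfa, which encodes transforming growth factor alpha, an EGFR ligand, spans bases 86195223 to 86275719 of chromosome 6. It had 295 and 237 counts in Lgr6-positive libraries, against 0 and 6 in Lgr6-negative libraries. The ratio of summed levels was 66.5, with a 95% counting interval from 30.4 to 182 (log2 fold change 5.93, SE 1.95, adjusted p = 0.0960). The call was made in 4 of 12 other settings, with adjusted p from 0.00113 to 0.182. Leaving out Lgr6-negative replicate 2, the library with those 6 counts, gave a log2 fold change of 10.95.

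Hbegf, the heparin-binding ligand of EGFR and ERBB4, lies on chromosome 18 from 36504927 to 36515805. Its counts were 233 and 215 in Lgr6-positive libraries, against 47 and 10 in Lgr6-negative libraries. The Lgr6-positive libraries were close to each other, at 27.9 ± 0.939 CPM against 4.555 ± 3.93 CPM. The log2 fold change was 2.61 (SE 1.45, adjusted p = 0.325), and none of 12 other settings passed, with adjusted p from 0.133 to 0.682.

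Btc, the betacellulin gene, spans bases 91357261 to 91402994 of chromosome 5 on the minus strand. It had 88 and 39 counts in Lgr6-positive libraries and none in either Lgr6-negative library. Against a floor of 3 counts per Lgr6-negative library it was at least 15.7-fold higher (adjusted p = 0.103, and 0.0348 to 0.412 over 11 other settings, of which 2 passed). Ereg, the epiregulin gene on the same chromosome from 91074622 to 91093646, had 3 and 10 counts in Lgr6-positive libraries and none in Lgr6-negative libraries. It did not reach the minimum level for testing, and no fold change is given for it.

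Nrg1, the neuregulin 1 gene, whose product binds ERBB3 and ERBB4, lies on chromosome 8 from 31814551 to 32884029. It was the member with the opposite pattern, with no counts in Lgr6-positive libraries, against 79 and 30 counts in Lgr6-negative libraries. This made it at least 23.6-fold lower against a floor of 3 counts per Lgr6-positive library. Its adjusted p was 0.0898, with 0.0171 in DESeq2, 0.0315 in limma-voom and up to 0.472 over the other settings. Exons of Gm26578 cover 4.66% of its exonic bases. No source used here gives the strand setting of the counting, so reads of the pair cannot be told apart.

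The other 5 EGF family ligands were scarce. Egf, Epgn and Nrg3 had no counts in any library. Nrg2 had 5 and 0 counts in Lgr6-positive libraries, against 1 and 0 in Lgr6-negative libraries. Nrg4, a neuregulin that binds ERBB4, was the 1 gene of this list that was tested. It had 11 and 102 counts in Lgr6-positive libraries and none in Lgr6-negative libraries, most of them in replicate 2. Taking 3 counts per library as the floor, Nrg4 was at least 14.25-fold higher (adjusted p = 0.123). Exons of Fbxo22 and Gm15625 cover 8.97% of its exonic bases.

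Levels were compared between genes per kilobase of annotated exon. In Lgr6-positive libraries Areg was the most abundant member at 94.9 CPM per kb (93.6 and 96.3 in the 2 libraries), followed by Erbb2 at 27.0, Erbb3 at 15.1 and Egfr at 7.89. Hbegf followed at 5.77, Tgfa at 5.10, Btc at 1.74, Erbb4 at 1.10 and Ereg at 0.198 CPM per kb, with Nrg1 at 0. The ranges of Btc and Erbb4 over the 2 libraries overlapped, and those of the other neighbours in this order did not. By the longest transcript in place of all exons, Hbegf stood at 9.66 and Tgfa at 7.31, beside 8.75 for Egfr, so the order of Egfr and Hbegf turned with the length used. Without division by length, mean levels in Lgr6-positive libraries were 141 CPM for Erbb2 and 115 CPM for Areg, with overlapping ranges. The place of Areg above Erbb2 thus rests on that division.

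Among receptors, Erbb2 made up 47.4% and 57.2% of the summed CPM per kb in Lgr6-positive libraries, Erbb3 35.2% and 25.0%, Egfr 13.6% and 16.9%, and Erbb4 3.74% and 0.899%. The Lgr6-positive libraries shared the order Erbb2, Erbb3, Egfr, Erbb4. In the Lgr6-negative libraries, Erbb3 held 85.1% in replicate 1 and 7.31% in replicate 2, while Erbb2 held 0.722% and 90.7%. These libraries had only 180 and 49 receptor counts, so their make-up is uncertain and did not repeat between replicates. Summed receptor level was 45.1 and 57.05 CPM per kb in Lgr6-positive libraries and 4.15 and 1.62 CPM per kb in Lgr6-negative libraries.

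Among ligands, Areg made up 87.0% and 89.2% of the summed CPM per kb in Lgr6-positive libraries, against 84.8% and 94.8% in Lgr6-negative libraries. Its share overlapped between the populations. The rest was Hbegf (5.50% and 5.22%), Tgfa (5.18% and 4.29%) and Btc (2.22% and 1.01%) in Lgr6-positive libraries. In Lgr6-negative libraries it was Hbegf (8.49% and 1.82%) and Nrg1 (6.67% and 2.55%), with Tgfa at 0% and 0.813%. Summed ligand level was 107.5 and 107.9 CPM per kb in Lgr6-positive libraries, against 17.9 and 20.2 CPM per kb in Lgr6-negative libraries.

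**Figure D3:**
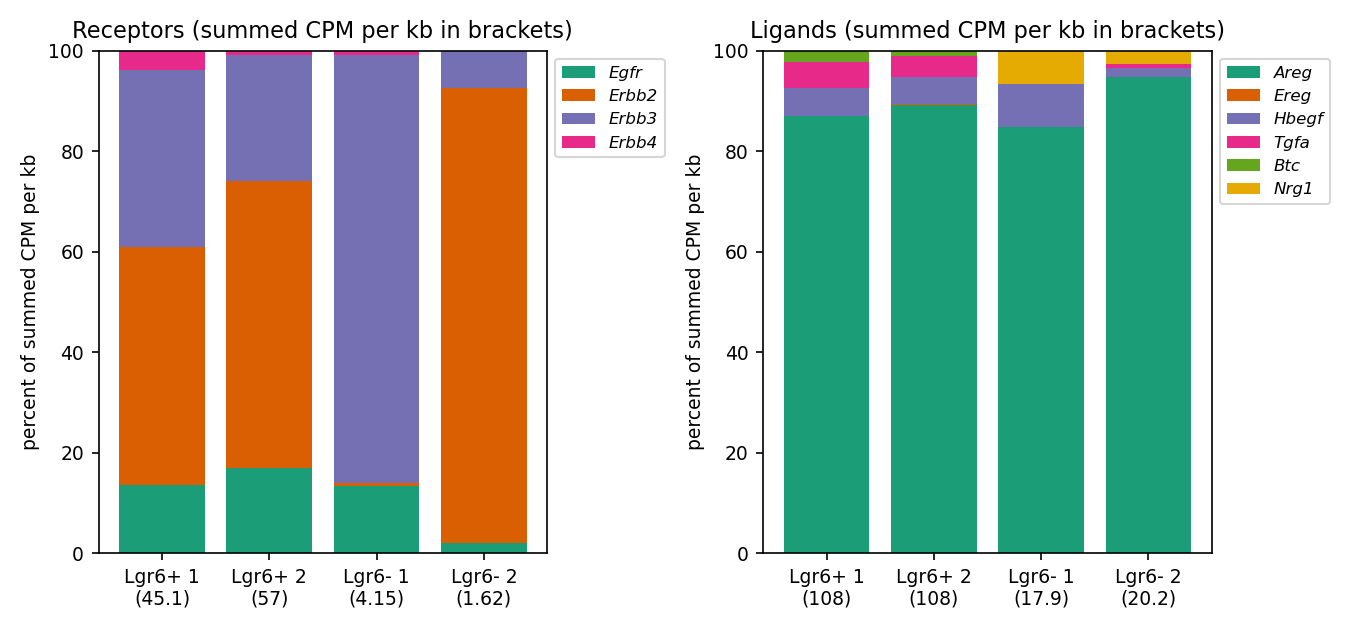
Share of each gene in the summed CPM per kb of the 4 receptors (left panel) and of the 6 ligands (right panel), by library, with the sum in brackets. Erbb2 and Erbb3 fill most of the receptor bars, in unlike parts in the 2 Lgr6-negative libraries, and Areg fills between 84.8% and 94.8% of each ligand bar.

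Epithelial markers moved with the members, so the members were also set against them. The 8 pan-epithelial markers had 29339 and 27497 counts in Lgr6-positive libraries, against 910 and 619 in Lgr6-negative libraries. Per 1000 of these counts, Areg stood at 31.6 and 33.6 in Lgr6-positive libraries, against 130 and 212 in Lgr6-negative libraries. Hbegf stood at 7.94 and 7.82, against 51.65 and 16.2. For both ligands the order of the groups was thus the reverse of that in CPM. The receptors overlapped between the groups on this scale. Erbb2 was at 31.0 and 48.8, against 1.10 and 69.5, Erbb3 at 26.6 and 24.7, against 149.5 and 6.46, and Egfr at 19.3 and 31.4, against 44.0 and 3.23. Tgfa overlapped too, at 10.05 and 8.62, against 0 and 9.69.

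On the epithelial scale 1 of the 9 tested members, Btc, was apart and higher, 3 were apart and lower (Areg, Hbegf and Nrg1), and 5 overlapped. Btc had no counts in Lgr6-negative libraries and Nrg1 none in Lgr6-positive libraries. Both are therefore apart on any scale, and their place here shows nothing further. Of all tested genes, 5.74% were apart and higher and 78.9% apart and lower on this scale. The scale was chosen after values were seen, carries no test, and assumes that the markers have the same level per epithelial cell in both populations.

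**Figure D4:**
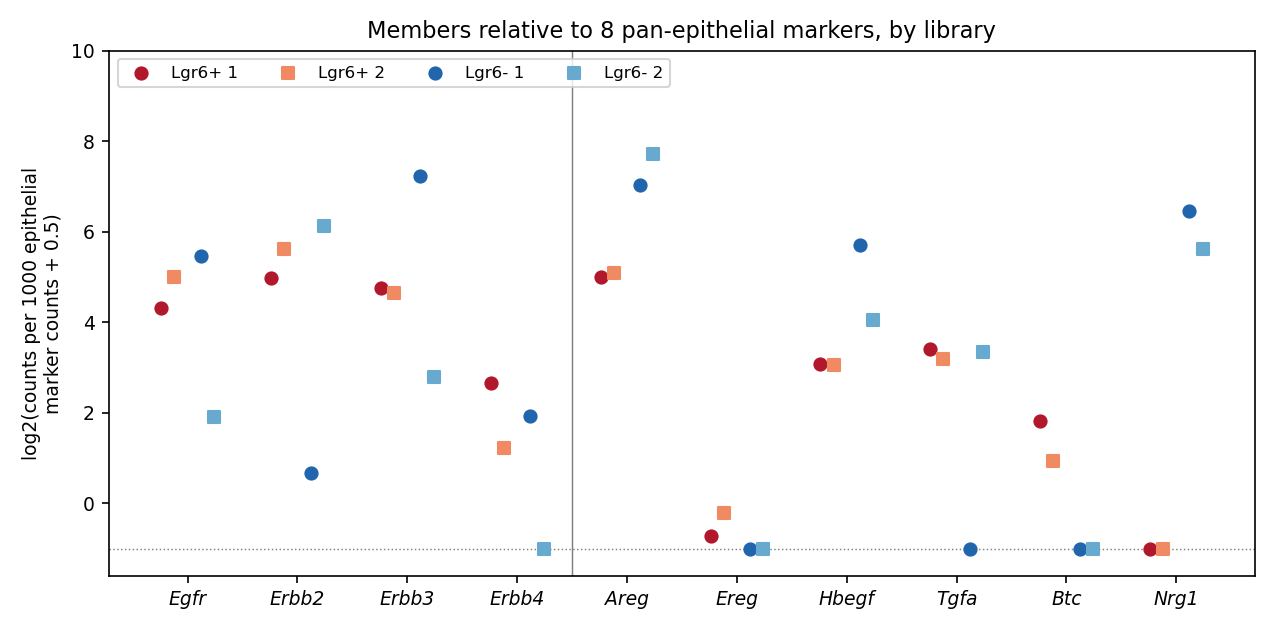
Level of each member per 1000 counts of the 8 pan-epithelial markers, as log2(value + 0.5), by library, with 0 at the dotted line. Red (Lgr6-positive) and blue (Lgr6-negative) points overlap for all 4 receptors and Tgfa, and the blue points lie above the red ones for Areg, Hbegf and Nrg1.

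Other marker lists moved as well. Of 7 tested hormone-sensing luminal markers, 5 were higher and 2 did not pass, with summed levels of 1995 and 1940 CPM in Lgr6-positive libraries, against 136 and 86.0 CPM in Lgr6-negative libraries. Tnfsf11 of this list was too scarce to test and went the other way. It had 3 and 0 counts in Lgr6-positive libraries, against 4 and 11 in Lgr6-negative libraries. Of 7 tested secretory luminal markers, 5 were higher (2313 and 2202 CPM against 144 and 156), and of 8 basal markers, 3 were higher (1981 and 2185 CPM against 241.5 and 211). Of 6 endothelial markers 4 were higher, at 1169 and 1418 CPM against 176.5 and 112, and of 6 fibroblast markers 2 were higher, at 715 and 453 CPM against 29.2 and 60.1. Csn2 and Lalba of the secretory list and Pdgfra of the fibroblast list had no counts in Lgr6-negative libraries. Mast and basophil cells, among which amphiregulin producers are known, had 5 of 6 markers at 0 in Lgr6-positive libraries (Cpa3, Mcpt8, Fcer1a, Ms4a2 and Tpsb2), and the list summed to 14.6 and 2.41 CPM against 50.2 and 28.8 CPM. Tpsb2 had no counts in Lgr6-negative libraries either. Hdc, the 1 tested marker of this list, held 32.45 and 19.9 CPM of the Lgr6-negative sums and did not pass in edgeR (adjusted p = 0.568). Schwann cells, which depend on Erbb3 and Nrg1, had 1 of 3 tested markers higher, Sox10, and the list summed to 59.5 and 99.3 CPM against 11.9 and 13.0 CPM, with Cdh19 at 0 in all libraries. Of 5 tested red cell markers 4 were higher, and of 2 tested platelet markers none passed in edgeR, while DESeq2 and limma-voom each called 1 higher. The part of these cells in the members' levels was not tested.

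Neighbouring ligand genes differed in level. Epgn, Ereg, Areg and Btc lie in this order on chromosome 5, with the gene model Gm19619, which had no counts, between Areg and Btc, with Epgn and Ereg beginning at -112.1 and -65.0 kb from the Areg start. Of these 4 ligand genes, Areg had 927 and 923 counts in Lgr6-positive libraries, Btc 88 and 39, Ereg 3 and 10, and Epgn none. Within 200 kb of the cluster, the chemokine gene Cxcl2 was lower in Lgr6-positive cells, at 50.6 and 33.0 CPM against 662 and 782 CPM (log2 fold change -4.11, SE 0.43, adjusted p = 0.00115). Cxcl1 beside it had the opposite sign and did not pass, at 121 and 171 CPM against 66 and 97.8 CPM (0.84, SE 0.56, adjusted p = 0.421). Parm1 on the other side had a log2 fold change of 3.69 (SE 1.29, adjusted p = 0.112), and Mthfd2l had no counts. Within 50 kb of Erbb2, Grb7 was higher, while Mien1 (-0.73, SE 0.81, adjusted p = 0.672), Stard3 (-0.78, SE 1.69, 0.850), Pgap3 (-2.08, SE 2.64, 0.718) and Ikzf3 (-2.01, SE 1.54, 0.502) did not pass. Mien1 overlaps 0.173% of the exonic bases of Erbb2. These neighbours were chosen after values were seen.

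The genes whose profile over the 4 libraries was most like that of Erbb2 were Fgg, Robo4 and Adck3, by Euclidean distance between log2 CPM profiles centred on their own mean. The distances were 0.0408, 0.347 and 0.349. Fgg, a fibrinogen chain gene, had 609 and 892 counts in Lgr6-positive libraries, against 0 and 28 in Lgr6-negative libraries. Like Erbb2, all 3 had at most 1 count in replicate 1 of the Lgr6-negative population, and none of them passed the test (adjusted p from 0.0705 to 0.0810). In edgeR's test, on which the choice of profiles rested, no member was lower, so none was sought in that direction.

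Around the receptors, 60 further pathway genes were tested, of which 3 were higher, 4 were lower and 53 did not pass, with a median log2 fold change of 0.18. The median over all tested genes was 0.10. Grb7, an adaptor that binds activated ERBB2 and ERBB3 and is the next gene but 1 on chromosome 11, rose in Lgr6-positive cells. It had 345 and 361 counts there, against 3 and 0 in Lgr6-negative libraries. The ratio of summed levels was 176.5, with a 95% counting interval from 60.15 to 858 (log2 fold change 7.41, SE 1.77, adjusted p = 0.0346), and the call held under 12 of 12 other settings. With Lgr6-negative replicate 1, the library with those 3 counts, left out, the fitted value was 11.31. Grb2, the adaptor that links activated receptors to RAS, fell, at 10.1 and 8.49 CPM in Lgr6-positive libraries, against 173 and 53.5 CPM in Lgr6-negative libraries (-3.61, SE 0.90, adjusted p = 0.0400). The Grb2 call was lost by library size alone (0.0779), in limma-voom (0.0978) and when Lgr6-negative replicate 1 was left out (0.409). Of 27 adaptor and cascade genes, 1 was higher, 1 was lower and 25 did not pass, among them Map2k1 (-2.30, SE 0.69, adjusted p = 0.0747), Pik3r1 (1.36, SE 0.44, 0.0922) and Gab1 (1.26, SE 0.51, 0.160). The list's median was 0.09.

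Among 12 genes that restrain the receptors, 3 were lower and 9 did not pass, and the median was -0.03. At an unadjusted p under 0.05, 1 was higher and 4 were lower, and DESeq2 called the same numbers. Cblb, a ubiquitin ligase that marks active receptors for degradation, stood at 31.5 and 23.4 CPM in Lgr6-positive libraries, against 262 and 338 CPM in Lgr6-negative libraries. Its log2 fold change was -3.45 (SE 0.52, adjusted p = 0.00511), and it was called under 12 of 12 other settings. The related ligase Cbl (-2.11, SE 0.49, adjusted p = 0.0315) and the tyrosine phosphatase Ptpn1 (-2.19, SE 0.48, 0.0254) also fell. Both lost their call by library size alone (0.0826 and 0.0727) and when Lgr6-negative replicate 1 was left out (0.122 and 0.123). Leukocytes use these genes too, and the leukocyte markers had a median log2 fold change of -3.81 in the same libraries. The part of leukocytes in the lower levels of Cbl, Cblb and Ptpn1 was not tested. Cblc, the epithelial member of the CBL family, had 52 and 105 counts in Lgr6-positive libraries and none in Lgr6-negative libraries (adjusted p = 0.0919). Ptpn12 was at 48.2 and 47.5 CPM against 190 and 135 CPM (adjusted p = 0.0912).

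Of 6 tested genes that cut or traffic the ligand precursors, none passed in either direction in edgeR as reported, DESeq2 or limma-voom. In edgeR 1 was lower without a filter, 1 without Lgr6-positive replicate 2 and 1 without Lgr6-negative replicate 2. At an unadjusted p under 0.05, 1 was higher and 1 lower. Adam17, the main sheddase of Areg, Hbegf and Tgfa, was at 63.4 and 127 CPM in Lgr6-positive libraries, against 366 and 204 CPM in Lgr6-negative libraries (log2 fold change -1.58, SE 0.54, adjusted p = 0.105). Adam10, the main sheddase of Btc, was at 178.5 and 183 CPM against 81.8 and 56.35 CPM (1.39, SE 0.53, 0.137). Neither gene's libraries overlapped between the groups. The trafficking genes Rhbdf1 (3.37, SE 2.22, adjusted p = 0.417), Rhbdf2 (-0.52, SE 0.99, 0.826) and Frmd8 (0.26, SE 1.13, 0.936) did not pass either.

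Of 14 genes that respond to ERK signalling, 2 were higher and 12 did not pass, and the median was 1.02. At an unadjusted p under 0.05, 4 were higher and none lower, and DESeq2 called 4 higher and limma-voom 3. Egr1, an immediate early transcription factor, reached 3436 and 3688 CPM in Lgr6-positive libraries, against 591 and 864 CPM in Lgr6-negative libraries (log2 fold change 2.29, SE 0.26, adjusted p = 0.00158). Ccnd1, which encodes cyclin D1, was at 303 and 258 CPM against 35.4 and 14.2 CPM (3.50, SE 0.62, 0.0105), though exons of another gene cover 23.4% of its exonic bases. Spry4, a feedback inhibitor, had 339 and 94 counts in Lgr6-positive libraries, against 0 and 1 in Lgr6-negative libraries (adjusted p = 0.0567). Myc was at 139 and 184 CPM against 43.2 and 37.3 CPM (adjusted p = 0.0664) and Spred2 at 32.3 and 10.0 CPM against 2.18 and 1.78 CPM (3.40, SE 1.67, 0.255). These genes respond to many stimuli besides ERBB ligands.

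**Figure D5:**
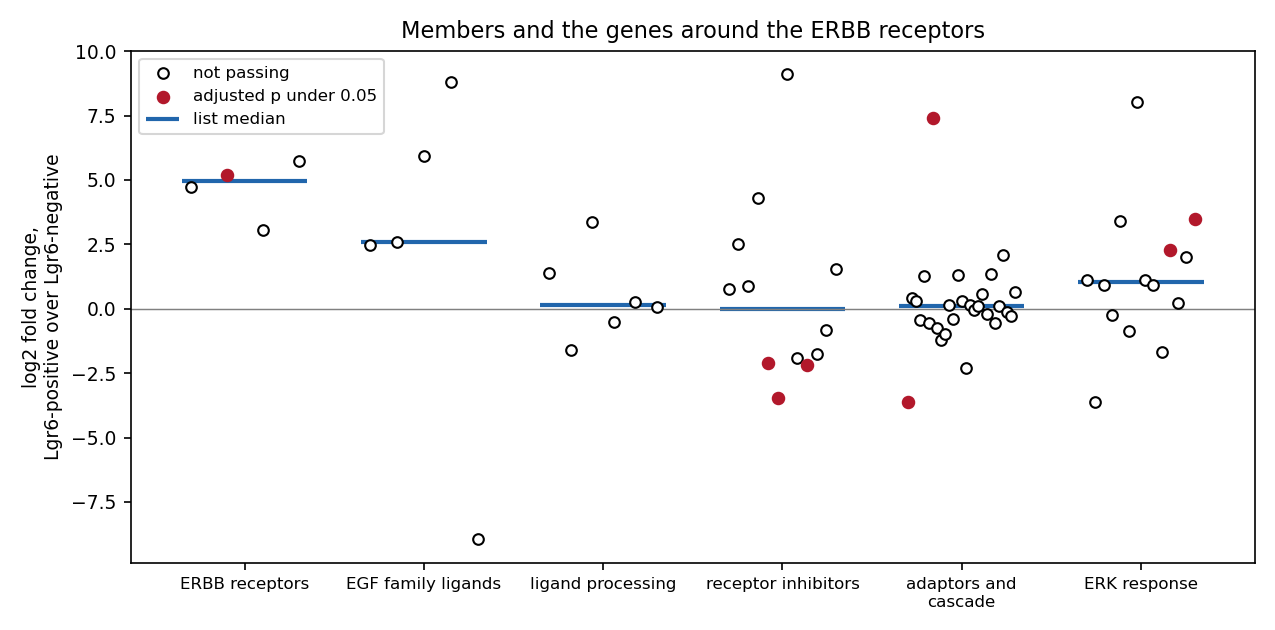
Log2 fold change, Lgr6-positive over Lgr6-negative, of each tested receptor, ligand and pathway gene by list, with list medians as blue lines and called genes in red. The medians are 4.96 for receptors, 2.61 for ligands, 0.16 for ligand processing, -0.03 for inhibitors, 0.09 for adaptors and cascade and 1.02 for ERK response. The 4 receptors reached the minimum level for testing in both Lgr6-positive libraries. In the Lgr6-negative population, Egfr, Erbb2 and Erbb3 reached it in 1 library and Erbb4 in 0. Such genes have, by definition, at least 1 Lgr6-negative library below the minimum, so the receptor median supports nothing further.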

How the data were processed

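RNA of 4 libraries was amplified over 18 PCR cycles and sequenced in paired reads, with RNA integrity numbers of 5 to 8 per the labels' protocols. The authors deposited expected counts per gene, not scaled for depth. Per the submitters' processing notes, the tools were RSEM 1.2.22 and STAR 2.4.2a and the build was mm10. No source used here gives the annotation or strand setting.

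Values were rounded to whole counts (3.36% to 4.86% of genes were fractional). R 4.3.3 ran edgeR 4.0.16 on 11661 genes kept by filterByExpr (minimum count 10, minimum total 15), scaled by TMM (factors 0.787 to 1.21), using glmQLFit and glmQLFTest with no covariate besides the population. SE was taken as the size of the log2 fold change divided by the root of the F statistic. The common dispersion was 0.795. Bounds use a floor of 3 counts per library (0.368 to 0.533 CPM), and ratios have exact 95% intervals of counting error. Gene positions and exon lengths came from GENCODE M21 (GRCm38, also called mm10). Alternatives used DESeq2 1.42.0, limma 3.58.1, other scalings, filters, a replicate block and each library left out. Of these steps, the edgeR fit alone was tested on simulated counts. Replicates were not identical (chi-square per degree of freedom 101 in Lgr6-positive and 86.4 in Lgr6-negative pairs).

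The members and lists were chosen with earlier results of these data known. Named were all members, all 5 other ligands, up to 5 tested genes per list with the smallest p-values, and 3 genes nearest in profile to the called member. Nrdc was not matched by symbol. Figures used matplotlib 3.10.9 in Python 3.11.15.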

Additional observations from a re-analysis of the deposited data

How the results depend on the processing

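All 9 tested members kept the sign of their fold change under the alternatives in which they could be tested. Counts of calls depended on the setting. Members higher were 2 by library size alone and with DESeq2 size factors, 6 in DESeq2, 4 in limma-voom, 5 without a filter and 4 under a stricter one, and 2 to 3 with a library left out (3 without Lgr6-negative replicate 1), against 1 as reported. Erbb2 was among them each time. With a library left out, the lone library was assumed to vary like the other population, and Btc and Nrg1 did not pass the stricter filter. Nrg1 was lower in DESeq2 and in limma-voom (1 member each). Per 1000 epithelial marker counts, a scale chosen after seeing the data, 1 member was apart and higher and 3 apart and lower. Of these, Btc and Nrg1, each without counts in 1 population, are apart on any scale. Pathway genes higher were 6 by library size alone, in DESeq2 and under a stricter filter, 5 in limma-voom and without a filter, and 3 to 6 with a library left out (6 without Lgr6-positive replicate 1), against 3 as reported. Pathway genes lower were 1 by library size alone and 1 to 5 with a library left out (1 without Lgr6-negative replicate 1), against 4. Over all genes, 524 were higher and 533 lower as reported, 1412 and 1003 in DESeq2, 967 and 854 without a filter, 862 higher under a stricter filter and 327 lower by library size alone. With a library left out, 678 to 956 were higher and 540 to 1030 lower, in each case most without Lgr6-positive replicate 1. Scaling by library size alone moved the fold changes of all genes up by 0.45 (median, log2). The cause of these differences was not tested.

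Libraries of the same number share only that number, and their deviations from the group means correlated at -0.0202. With the replicate block, 3 members were higher (Erbb2, Egfr with an adjusted p of 0.0123 and Erbb3 with 0.0430), and 678 genes were higher and 662 lower. Depth limits Ereg, Nrg2 and the Lgr6-negative receptor shares, which rest on few counts.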
